A study of Aedes albopictus with 6 samples.

Results

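In a table of small RNAs from whole adult Aedes albopictus, the Asian tiger mosquito, 334 sequence tags had 20 or more counts in the female column and a listed count of 0 in the male column. These tags, the members below, were chosen from 22773 listed tags by those 2 counts, so their difference between the sexes is a description and carries no test. The groups were virgin females and males, both sampled 2 days after emergence as adults, with 3 libraries titled for each sex. The table has 1 count column for females and 1 for males, so no value below has a replicate check, and the spread between mosquitoes is not known. Its TPM values, counts scaled to the total of a column without regard to length, imply a total of 2677063 female and 2060047 male counts. The table held only tags at least 2-fold apart between the sexes, so every statement on neighbouring tags is a statement on listed tags. Brackets give 95% intervals. Those of counts and of their ratios cover counting error only, and for shares the tags are treated as independent although many overlap.

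PIWI-interacting RNAs (piRNAs) are small RNAs, a little longer than microRNAs, that guide Piwi proteins to transposon transcripts and, in mosquitoes, also to viral RNA. Many come from clusters, long stretches of the genome that give rise to a single-stranded precursor, which is then cut into one piRNA after another. In insects they are abundant in the ovary and testis, and in Aedes mosquitoes they are also made in body tissues outside the gonads. Whole bodies of the sexes differ in their tissues, the ovary included, so more cells of a type and more RNA per cell cannot be told apart in these values. The strand, the sequence and the gene or repeat context of the tags were not analysed here.

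The members were of modest level. Together they had 10078 female counts, 0.376% of the female total and 3.75% of the female counts in the list. They made up 1.47% of the listed tags, a share that the rule itself sets, while 55.7% of listed tags (12682) had a male count of 0. The lowest member had 20 counts, the median 25 and the highest 343, which is a TPM of 7.47, 9.34 and 128.1. At 30 or more counts there were 96 members, at 50 or more 23 and at 100 or more 4. The edge of the rule lay in a dense part of the list, since 47 members had exactly 20 counts and 36 had 21, while 56 tags with 19 counts and 62 with 18 were just outside. On the male side no tag had a count of 1, and 150 tags with 20 or more female counts had 2 male counts and were just outside, as were 111 with 3. The most counted of the tags with 2 male counts reached 127 in females.

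Most members had no male count listed near them, either because no tag was listed there or because all were at 0 in males. Of the 334 members, 100 (29.9%, 25.1 to 35.2) had no other listed tag within 10 kb, beside 26.7% of all other listed tags, a share inside that interval. A further 105 (31.4%, 26.5 to 36.7) had listed neighbours that were all at 0 in males. Neighbours included other members, which the rule sets at 0 in males, and 5 members had no listed neighbour but members. Another 104 (31.1%, 26.2 to 36.4) had neighbours with male counts whose sum was higher in females. The remaining 25 (7.49%, 4.90 to 10.8) lay among neighbours whose sum was higher in males, a number that was 18 with TMM and 6 with RLE factors, scaling factors of edgeR, in place of the totals. A tag counted in males thus lay within 10 kb of 38.6% (33.4 to 44.1) of members, beside 59.2% of all other listed tags. For tags listed in females alone with fewer than 20 counts this share was 43.8%, inside the members' interval. For female-higher tags counted in both sexes with 20 or more female counts it was 75.5%. Tags of the same set counted as neighbours here, so the rules of the sets push these shares apart. Members can add no male count to each other. Every tag of the last set has a male count, and 62.0% of that set lay within 10 kb of another of it. In all, 61.4% (55.9 to 66.6) of members had no male count listed within 10 kb, and this share was 65.5% without the 2 regions that held most members. Members without neighbours had a median of 24 female counts, as did both sets with male counts nearby. The next set, whose neighbours were all at 0 in males, had a median of 26 and held the most counted member.

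**Figure D1:**
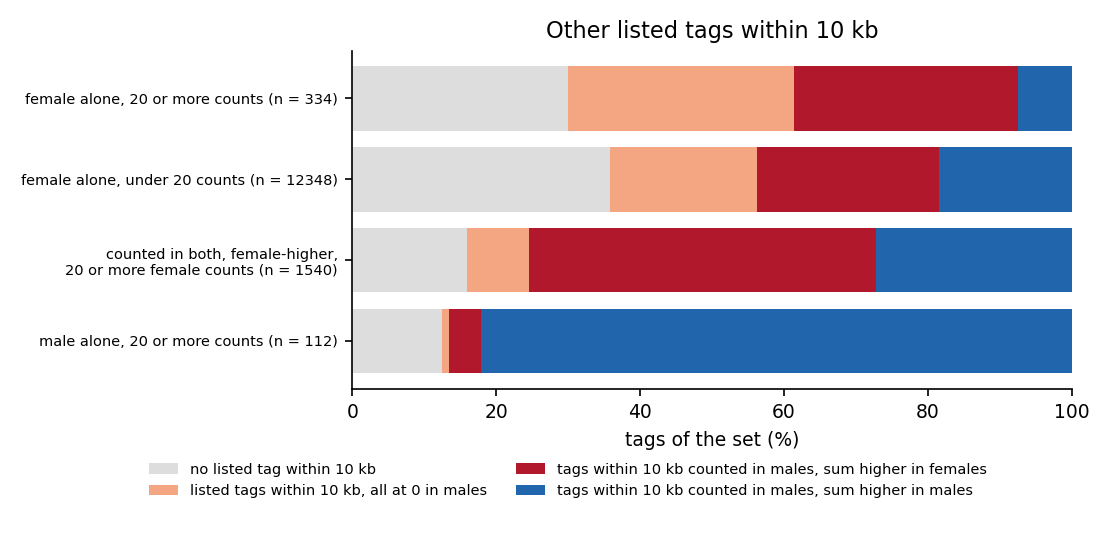
Share of tags (%) by what else the list holds within 10 kb, for the members (top bar) and 3 other sets. Neighbours include tags of the same set, so the rule of a set bears on its own shares. Of the members, 29.9% had no listed neighbour and 31.4% had neighbours all at 0 in males, while in the set listed in males alone 82.1% lay among neighbours whose sum was higher in males.

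The same tally was made in 3 other sets of listed tags, of different sizes. In each, tags of the same set counted as neighbours, so the rule of a set bears on its own shares. Among the 1540 tags that were counted in both sexes, were higher in females and had 20 or more female counts, 15.9% (14.1 to 17.8) had no listed neighbour within 10 kb and 8.64% (7.28 to 10.2) had neighbours all at 0 in males. Among the 12348 tags listed in females alone with fewer than 20 counts, these shares were 35.8% (35.0 to 36.7) and 20.4% (19.7 to 21.1). The 112 tags listed in males alone with 20 or more counts were placed otherwise, as 14 (12.5%, 7.0 to 20.1) had no listed neighbour and 92 (82.1%, 73.8 to 88.7) lay among neighbours whose sum was higher in males. None of the members lay on the mitochondrial sequence, which held 15 of those 112 tags.

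The 10 members with most female counts came from 3 of these settings, and none of them from among neighbours whose sum was higher in males, where the highest member had 38 counts. The highest was t00012116, a 28-nt tag at NW_021838687.1 12619927 to 12619954, with 343 counts (308 to 381) in females and 0 in males. It held 94.0% of the female counts of its locus, the rest being a 27-nt tag of 22 counts with the same first base, itself a member. Within 10 kb lay 6 other tags that are not members, with 6 to 9 female counts each and 0 in males, and 1 more member of 26 counts, 25 nt long, at 12619388. All 9 listed tags of this stretch of 3234 bases were thus at 0 in males.

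The second was t00029231, a 28-nt tag at NW_021838153.1 96895850 to 96895877, with 123 counts (102 to 147). Tags of 29 and 27 nt, starting at 96895821 and 96895823, ended on the base just before it, with 10 and 13 female counts. A 24-nt tag of 7 counts, at 96895878 to 96895901, began on the base just after it. The list thus held a run of 3 consecutive tags here, all at 0 in males, and the only male counts within 10 kb were 4 on a tag at 96895821 with 23 female counts. The third, at NW_021837045.1 43568115 to 43568143 (29 nt), had 114 counts (94.0 to 137) and shared its first base with a 28-nt member of 60 counts. No other tag was listed within 10 kb of that pair.

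The fourth, t00034802, lay in the region with most members and is described with it. The fifth and sixth had no listed neighbour within 10 kb. The 29-nt tag at NW_021837045.1 112129467 to 112129495 had 99 counts (80.5 to 120), with the nearest listed tag 84865 bases away. The 28-nt tag at NW_021838153.1 52393697 had 92 counts (74.2 to 113), with the nearest 16254 bases away. Both were single lengths from a single start, with no listed variant. The 27-nt tag at NW_021837931.1 24429388 had 85 counts (67.9 to 105) and overlapped 2 tags that summed to 13 female and 0 male counts. The 28-nt tags at NW_021838909.1 43056876 and NW_021837822.1 19571512 had 77 (60.8 to 96.2) and 73 (57.2 to 91.8) counts. The first of these had 3 neighbours with 29 female and 16 male counts, the second 1 neighbour with 7 female counts. The 29-nt tag at NW_021838153.1 116916027 had 72 (56.3 to 90.7) counts and 1 neighbour with 8.

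By position the members were scattered, with a few dense groups. They lay on 86 of the 686 sequences of the list, 51 of which held 1 member, while 13 sequences with 10 or more held 205. NW_021838153.1 had most, 30 members among 1279 listed tags. Set against the listed tags of a scaffold, NW_021837226.1 stood highest of those with 10 or more, with 10 members among 55 tags (18.2%), and NW_021839130.1 lowest, with 12 among 1302 (0.92%). Members that overlapped each other merged to 313 loci, of which 299 held 1 member, 11 held 2, 2 held 3 and 1 held 7. Within 10 kb of another member lay 78 members (23.4%, 18.9 to 28.3), in 25 groups, of which 16 were pairs. The 2 largest groups, with 11 and 10 members, were on NW_021837600.1 and NW_021837226.1. Without those 2 regions the share was 18.2%. The tags listed in males alone had 67 of 112 (59.8%, 50.1 to 69.0) within 10 kb of another of their own set, and the female-higher tags counted in both sexes 955 of 1540 (62.0%, 59.5 to 64.4). These shares are not like for like, since the sets differ in size and 15 of the 112 lay on the mitochondrial sequence.

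Listed tags within 1 kb of a member were mostly higher in females, and most often those that overlapped one. Over all listed tags that are not members, 67.8% were higher in females, and over the 6223 tags counted in both sexes 46% were. Of the 236 non-members that overlapped a member, 220 (93.2%, 89.2 to 96.1) were higher in females. At under 100 bases from the nearest member the share was 83.7% (77.9 to 88.5) of 203 tags, and at 100 to under 1000 bases it was 75.6% (71.8 to 79.2) of 554. At 1000 to 10000 bases it was 65.7% (63.5 to 67.8) of 1925, beside 67.3% (66.7 to 68.0) of the 19521 tags farther away.

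**Figure D2:**
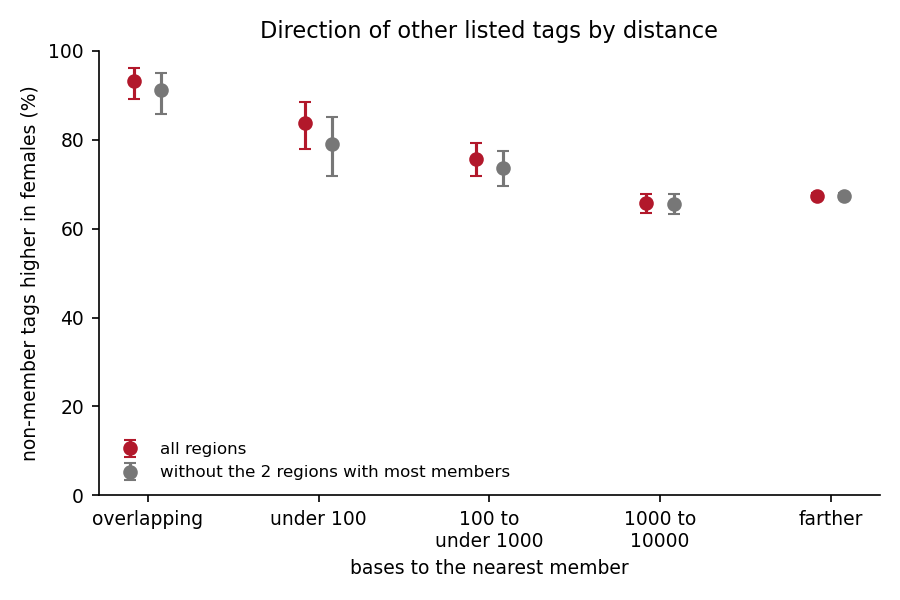
Share (%) of listed tags that are not members and were higher in females, by their distance in bases to the nearest member, with exact 95% intervals that take tags as independent. The share was 93.2% for tags that overlap a member and 65.7% at 1000 to 10000 bases, and without the 2 regions with most members the first of these was 91.1%.

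Tags at 0 in males are the bulk of the list's female-higher tags, so the tags counted in both sexes were also taken alone. Of those that overlapped a member 77 of 83 (92.8%, 84.9 to 97.3) were higher in females. The share was 77.7% of 85 at under 100 bases, 70.3% of 212 at 100 to under 1000 bases, 51.9% of 684 at 1000 to 10000 bases and 43.0% of 5159 farther away. Over all 1064 such tags within 10 kb of a member, 60.8% (57.8 to 63.8) were higher in females. Around the tags listed in females alone with fewer than 20 counts the share was 45.9% (44.5 to 47.3) of 4840 tags. Those are most of the 6223 such tags in the list, so a share close to its 46% was nearly given. Around the well-counted tags listed in males alone it was 12.4% (10.4 to 14.7) of 944.

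The ratio of summed levels was also highest for overlapping tags and lower with distance. The overlapping non-members had 9509 female and 1074 male counts, a level 6.81-fold (6.40 to 7.26) higher in females. This value leaned on the 2 regions with most members, since it was 3.58-fold (3.28 to 3.91) without them. At under 100 bases the sum was 2.60-fold (2.42 to 2.80) higher in females and at 100 to under 1000 bases 1.63-fold (1.58 to 1.68). At 1000 to 10000 bases the ratio of female to male levels was 0.943 (0.927 to 0.960), and farther away 0.826 (0.821 to 0.831). Both turned to higher in females with other scalings, to 1.28 and 1.12 with TMM and 2.13 and 1.86 with RLE factors, and the first also with the totals of the listed tags, at 1.01. The ratios at under 1 kb were above 1 under all 4 scalings tried. These sums held tags at least 2-fold apart only and do not measure a whole stretch of the genome.

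Part of the members shared their ends with other listed tags. Of the 334, 127 (38.0%, 32.8 to 43.5) overlapped at least 1 listed tag, beside 33.9% of all other listed tags, a share inside that interval. A first base was shared by 47 (14.1%, 10.5 to 18.3) and a last base by 53 (15.9%, 12.1 to 20.2), beside 10.4% and 11.8% of all other listed tags. With 1 member per locus the shares were 11.2% (7.91 to 15.2) and 12.5% (9.01 to 16.6), and these intervals include the shares of the other tags. For female-higher tags counted in both sexes with 20 or more female counts they were 15.8% and 18.6%. For tags listed in females alone with fewer than 20 counts they were 4.7% and 5.4%. Without strand, the first base in the table's coordinates may be either end of the RNA. Of the 127, 81 had the most female counts of their locus, and 46 were minor forms beside a more counted tag. Tags with male counts overlapped 56 members (16.8%, 12.9 to 21.2), beside 25.6% of all other listed tags. This share was 12.2% (11.6 to 12.8) for tags listed in females alone with fewer than 20 counts. For the female-higher tags counted in both sexes it was 35.3% (32.9 to 37.7). Overlaps within a set are included, and these add male counts in that set but none among members. A first or last base was shared with a tag counted in males by 32 members.

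The clearest case of minor forms was a stack at NW_021837226.1 47867 to 47913, where 31 listed tags lay within 47 bases. The most counted of the listed tags there, 26 nt from base 47873, was at a female TPM of 864 and a male TPM of 35.9. From that same base the list held every length from 24 to 33 nt. The tags of 24, 25, 27, 29 and 30 nt had 127, 622, 781, 289 and 693 female counts and 2, 13, 14, 12 and 21 male counts. Those of 28, 31 and 32 nt had 63, 70 and 22 female counts and 0 in males, which made them members. A further 4 members started at 47874, 47875 or 47890, with 21 to 38 female counts. All 7 members together held 5.0% of the 5557 female counts of the stack, which had 161 male counts. At the raw ratio of the other tags of the stack, 5279 female to 161 male counts, the 278 female counts of the 7 members correspond to 8.48 male counts over 7 tags, and those of the best counted one to 2.13.

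**Figure D3:**
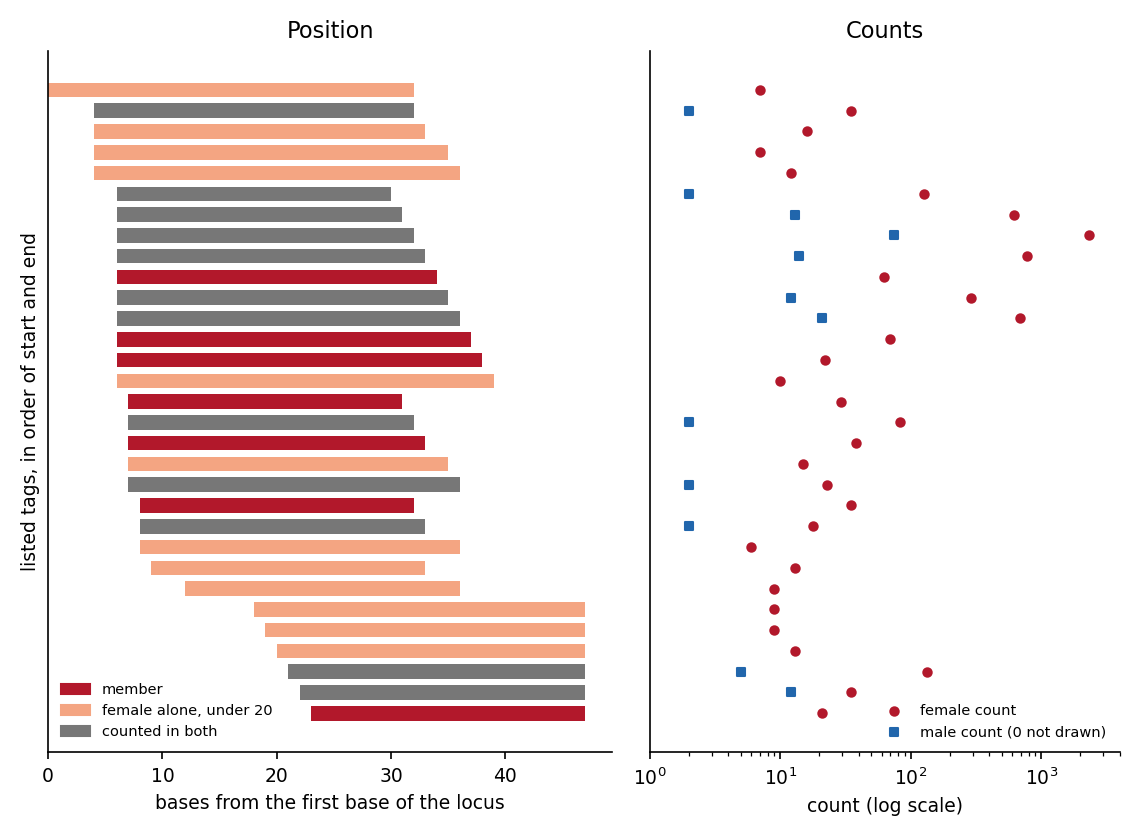
The 31 listed tags of the stack on NW_021837226.1, one per line. Left, bases covered, counted from the first base of the locus. Right, female (circles) and male (squares) counts on a log scale. The 7 members had 21 to 70 female counts, below the 2314 of the most counted tag, and no male square.

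In the same way a male count was worked out for each of the 54 members whose locus held other tags with both female and male counts. The value was under 2, the smallest count above 0 in the table, for 10 of them, between 2 and 5 for 18, and 5 or more for 26, with a median of 4.74. The rule raises these values, since the members, chosen at 0 in males, are left out of the ratio. Loci whose other tags had no male counts, which would give 0, are also left out. The highest value, 130, came from only 2 female and 10 male counts. A second locus of that region, at NW_021837226.1 41718 to 41749, held 3 members of 22, 23 and 35 counts around a 29-nt tag with 150 female and 5 male counts. Here the members correspond to 2.12 male counts in all. For t00034802 (27 nt, NW_021837600.1 41743028 to 41743054, 100 counts, 81.4 to 122), the value was 17.2, from 29 female and 5 male counts in the 2 tags that overlap it. At the ratio of the whole locus, with the tag's own counts included, it was 3.88.

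That tag lies in the region with most members, NW_021837600.1 41735615 to 41743779. Its 11 members fell within 3336 bases and had 366 counts in all, 20 to 100 each. Of the 123 other listed tags of the region, 121 were higher in females, 73 of them at 0 in males. Of the 50 counted in both sexes, 48 were higher in females. The other tags summed to 3166 female and 602 male counts, 4.05-fold (3.71 to 4.42) higher in females. The most counted tags there were no members, with 337 female and 63 male counts at 41741036 and 329 and 124 at 41743376. Some members overlapped tags counted in both sexes. The 31-nt member at 41743374 to 41743404 covered every base of the one with 329 female counts. Members also lay end to end with such tags. For example, the members starting at 41743544 and 41743545 (30 and 31 counts) ended together on 41743571, and a 29-nt tag with 53 female and 12 male counts began on the next base.

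**Figure D4:**
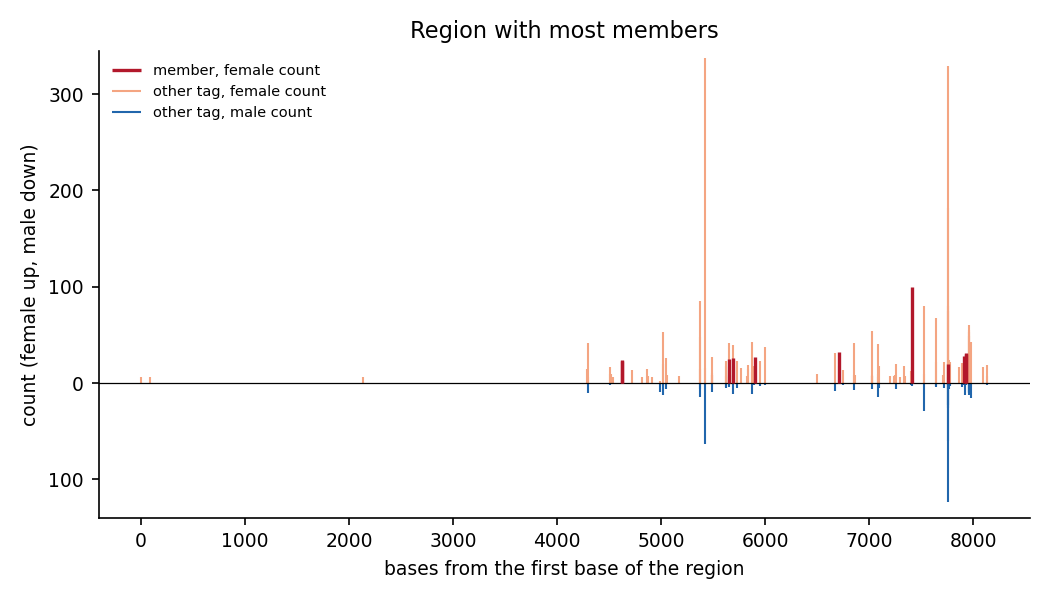
Counts of the 134 listed tags of the region on NW_021837600.1 by distance in bases from its first base, female counts upward and male counts downward. The 11 members, at 20 to 100 female counts, lie among 123 other tags. Of these, 73 were at 0 in males and 50 had male counts, the highest of which was 124.

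The other regions rich in members differed in the counts around them. At NW_021837600.1 49322744 to 49344827, 5 members of 21 to 43 counts lay among 73 other tags, 72 of them higher in females, whose sum was 3.80-fold (3.43 to 4.22) higher in females. At NW_021839130.1 50168091 to 50276698, 5 members lay among 364 others whose sum was 2.27-fold (2.17 to 2.37) higher in females. By contrast, the 7 members at NW_021837156.1 54462966 to 54529156 lay among 210 tags, 136 of them higher in females, whose summed level was 0.848 (0.813 to 0.883) of that in males. The 136 of 210 are a smaller share than the 67.8% of all listed tags that are not members. On the same scaffold at 57184704 to 57269974, 5 members lay among 278 tags with a ratio of 0.662 (0.641 to 0.684). These directions rest on the scaling, since the first ratio was 1.15 with TMM and 1.91 with RLE factors, and the second 0.901 and 1.49. The small group at NW_021837046.1 41457771 to 41458667 held 4 members of 20 to 30 counts, and the 6 other tags of its region summed to 71 female and 3 male counts. At NW_021837489.1 31741053 to 31741392, 3 members of 22 to 28 counts were the only listed tags of their region.

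Some members stood among strongly male-counted tags. The member with most male counts around it, at NW_021837156.1 57215299 (28 nt, 20 counts), had 113 non-members within 10 kb with 3623 female and 5767 male counts. Of those 113, 68 were higher in females, a share below the 67.8% of all listed tags that are not members. Next to it, the member at 57212516 (28 nt, 22 counts) had 3464 female and 5633 male counts around it. Both sums hold in part the same tags, since these members lie within 10 kb of each other. Around the 27-nt member of 35 counts at NW_021839130.1 50817830, 42 of 168 non-members were higher in females, with 1618 female and 3480 male counts. The member at NW_021837489.1 2356225 (27 nt, 24 counts) had 2636 and 2539 counts around it, and that at NW_021838798.1 74525542 (29 nt, 23 counts) had 1500 and 1822.

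At a few places, tags of opposite direction overlapped. In 16 members (4.79%) an overlapping tag was higher in males, with overlaps of 1 to 27 bases. No such share is given here for other listed tags. These places were picked out after their values were seen. The 27-nt member at NW_021837489.1 2356225 to 2356251 lay wholly within a 29-nt tag, at 2356224 to 2356252, that had 0 female and 7 male counts. The 25-nt member at NW_021838599.1 5397338 to 5397362 had 20 female counts, and a 27-nt tag with the same last base had 3 female and 11 male counts. The 25-nt member at NW_021838576.1 73075230 had 26 female counts, and a 27-nt tag that shared 18 of its bases had 2 female and 10 male counts. The 29-nt member at NW_021838798.1 74525542 overlapped 4 male-higher tags, the most counted of which had 36 female and 75 male counts and shared 13 bases. The strand of such pairs was not analysed here.

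The spacing of members and listed tags around them was read from positions. There were 16 pairs in which one tag began on the base after the other ended, and they included 11 members. At a gap of 1, 2 and 3 bases there were 9, 6 and 3 pairs, and at an overlap of 1 base 3. Of the 16 pairs, 1 joined members, of 26 nt and 31 counts and of 28 nt and 32 counts, at NW_021838865.1 3137249 to 3137302. Pairs that overlapped by 10 bases numbered 10, beside 6, 7, 7 and 9 at 8, 9, 11 and 12 bases. Stacked tags count in several of these pairs, and the numbers are too small to tell one distance from the next.

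The list held tags of 24 to 33 nt only, so the range of lengths was set by the list, and within it the members centred on 27 and 28 nt. Tags of 27 nt (109) and 28 nt (100) made up 62.6% (57.1 to 67.8) of them, and those of 24 or 25 nt 7.19% (4.66 to 10.5). The 27-nt or 28-nt share was 63.9% with 1 tag per locus and 65.4% by female counts. It was higher at higher counts, 70.8% of members with 30 or more, and 54.8% when the minimum was lowered to 10. Over all other listed tags it was 47.5% (46.8 to 48.1). In the other sets it was 57.7% (55.2 to 60.2) for female-higher tags counted in both sexes, 50.3% (49.4 to 51.2) for tags listed in females alone under 20 counts, and 44.6% (35.2 to 54.3) for the well-counted tags listed in males alone. Of the last set, 17.9% (11.3 to 26.2) were of 24 or 25 nt. Among members, 27-nt or 28-nt tags made up 70 of the 100 with no listed neighbour, and 13 of the 25 among neighbours whose sum was higher in males.

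**Figure D5:**
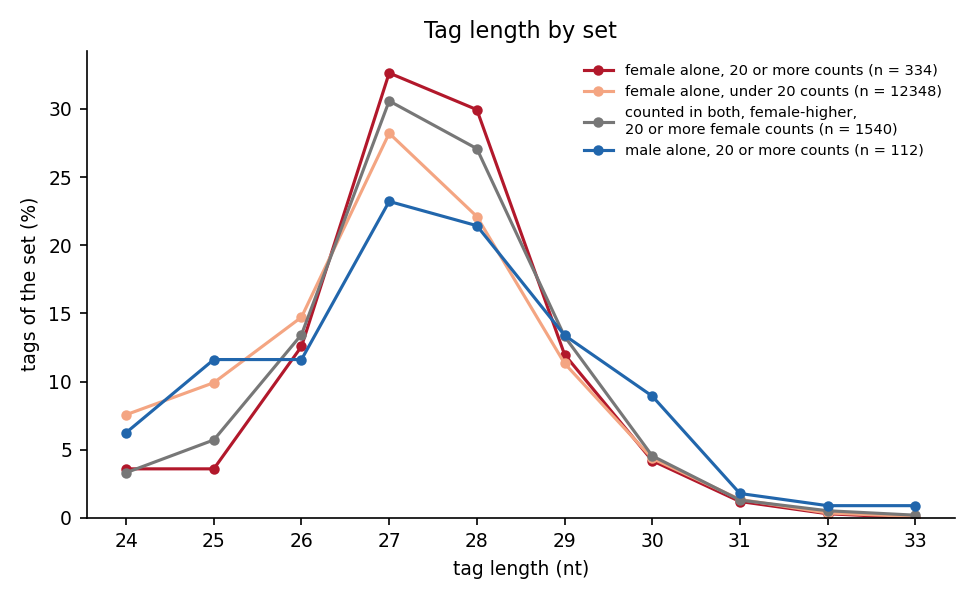
Share of tags (%) by length in nt for the members and 3 other sets of listed tags. The members peaked at 27 and 28 nt, with 109 and 100 of 334 tags.

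The longest members named here were the tags of 32 and 31 nt in the stack at NW_021837226.1 47873 and a 31-nt tag of 38 counts at NW_021838543.1 4862560, which overlapped 1 tag of 7 female counts. Members of 24 nt numbered 12, of which 3 were in that stack. The most counted was the tag at NW_021838932.1 1066940 with 39 counts, whose nearest listed tag lay 12103 bases away. The next, with 35 and 29 counts, were again in the stack, starting at 47875 and 47874.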

How the data were processed

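Small RNAs were gel-purified from TRIzol-extracted RNA of whole bodies and ligated to adaptors, per the labels' protocols. Reads were trimmed with Trimmomatic 0.30, per the submitters' processing notes. Not given in the sources used here are the aligner, counter, genome build, list filter and how a sex's libraries were pooled. The authors deposited whole counts per tag, 1 column per sex. Their deposited TPM values equalled the count scaled to a constant total per column, with 0 written as 0.01. Their deposited log2 values are male over female TPM, the smallest in size being 1.00. The smallest count above 0 was 2, and no 1 occurred.

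The members and lists were chosen with earlier results of these data known. With 1 column per sex, no test across tags could be run, no p-value is given, and the planned edgeR test of replicated counts was not used. A pair of tags were neighbours if at most 10 kb lay between them, and tags overlapping by 1 base or more formed a locus. In shares and sums over all members each neighbour was counted once. Values given member by member count a neighbour for each member near it. Regions were chains of listed tags with gaps of at most 10 kb. Tags were named by a rule: the 10 members with most female counts, the 5 loci and 5 regions with most members, the 5 members with most male counts around them, and the 3 longest and 3 shortest. The rest were named for examples after their values were seen. Share intervals are exact (Clopper-Pearson), count intervals exact (Poisson), and intervals of ratios exact conditional, scaled by the totals. As reads carried no stated molecular identifiers, they are not independent molecules. No fold is given against a listed 0. Merging and neighbour search were tested on simulated data. Alternatives covered count minimums, distances, merging, and scaling with edgeR 4.0.16 in R 4.3.3. Other steps used Python 3.11.15 with pandas 2.3.3 and SciPy 1.17.1.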

Additional observations from a re-analysis of the deposited data

How the results depend on the processing

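No paired analysis was possible because the columns carry no replicate numbers, and leaving out each replicate was not run for the same reason. The number of members was 334, but 2631, 789, 96 and 23 with female minimums of 10, 15, 30 and 50, 595 with up to 3 male counts allowed, and 153 with the minimum raised to 26 for the smaller male total. The share of 27-nt or 28-nt tags was 62.6%, and 54.8%, 70.8% and 69.6% with minimums of 10, 30 and 50. The share of members within 10 kb of another was 23.4%, and 17.4% at 1 kb, 16.3% for merged loci and 18.2% without the 2 regions with most members. The share of neighbours higher in females was 71.0%, and 81.5%, 73.3%, 68.8% and 68.3% at 1, 5, 20 and 50 kb, 60.8% for tags counted in both sexes and 69.1% without tags that overlap a member. The neighbours' sum was 1.33-fold higher in females, and 1.43-fold with the totals of the listed tags, 1.81-fold with TMM, 3.01-fold with RLE and 1.26-fold with upper quartile factors, though the list has no unchanged tags. It was 1.49-fold without the most counted neighbour, 1.28-fold without the region with most members, 1.14-fold without the 2 with most, and 1.28-fold with a listed 0 taken as 1. The share of members with no male count within 10 kb was 61.4%, and 68.3% at 1 kb, 53.3% at 50 kb and 55.5% with a minimum of 10. With TMM and RLE factors, ratios of summed levels of 0.943 (1000 to 10000 bases from a member) and 0.826 (farther) turned to 1.28 and 2.13, and to 1.12 and 1.86, and the first was 1.01 when scaled by listed totals. Around the members at NW_021837156.1 54462966 the ratio of 0.848 turned to 1.15 and 1.91, and at 57184704 that of 0.662 turned to 1.49 with RLE factors only. The number of members among neighbours higher in males in sum was 25, and 6 with RLE factors. Of 101 alternatives, 8 turned a ratio, 58 moved a value and 35 stayed within counting error of the main value or, for numbers of tags, within 1.5 times it. Leaving out the 2 regions, the scaling of ratios other than the 10 kb sum and of the 25 members, the tests of overlapping tags and those of members with no male count nearby were added after seeing the data. Each member rests on 20 to 343 female counts, and depth limits what a male 0 can show for those near 20.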

Other observations

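The numbers in the tag names followed the listed counts. Over all 22773 listed tags, a tag with a higher sum of both listed counts always had a lower number. Tags with a sum of 20 were numbered from 115771 to 119761, those with 19 began at 119821 and those with 21 ended at 115675. The 47 members with 20 counts were thus numbered after every listed tag with a sum of 21. So no male count of 1 had been added to their sum when the numbers were given. Whether single counts had been dropped before that step cannot be read from the table. If the numbers count tags one by one, the 4611 listed tags with a sum of 20 or more are 3.85% of those numbered up to that point.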
